A study of Mus musculus with 2 samples.

Results

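The aquaporins are the channel proteins through which water, and in some members glycerol, crosses cell membranes. The 10 mouse genes Aqp1 to Aqp9 and Aqp11 were taken by name from the gene and transcript tables of newborn kidney, where they are 10 of 42462 genes that could be named. The remaining family genes of the mouse, Mip (the lens aquaporin) and Aqp12 (a pancreatic aquaporin), were read beside them. Total RNA was sequenced from the kidneys of 2 newborn B6NCrl mice, taken at postnatal day 0. Each library held both kidneys of 1 pup, with no treatment or altered allele named in the labels. Both pups came from the same mother, their sex was not collected per the labels, and they form 1 group. There was therefore no condition to compare and no p-value is given. The error of every level is the spread between 2 littermates, which leaves out the spread between litters. In RNA of whole kidneys, fewer cells of a type and less RNA per cell cannot be told apart.

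In the adult kidney the aquaporins divide the nephron between them. AQP1 lets the proximal tubule and the thin descending limb reabsorb water at all times. AQP2 waits in vesicles of collecting duct principal cells, and vasopressin, acting through its receptor, cyclic AMP and protein kinase A, moves it to the apical membrane and raises its transcription. Water then leaves those cells through AQP3 and AQP4 on the basolateral side. AQP5 and AQP6 are known from intercalated cells, AQP7 from the straight proximal tubule and AQP11 from the endoplasmic reticulum of proximal tubule cells. The newborn mouse cannot yet concentrate its urine well, and its medulla is still growing.

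The pore of an aquaporin is lined by a pair of short boxes that usually read asparagine, proline, alanine. In the coding sequences of the annotation GENCODE M21 these boxes were searched as the in-frame codons AACCCNGCN or AATCCNGCN, on the coding strand, in a single transcript per gene. For Aqp11 this was Aqp11-205, whereas the transcript counted for the levels was Aqp11-201. Of the 10 genes 8 held both boxes, Aqp11 held 1 and Aqp7 held none. The sequences show how these outliers differ from the 3 most abundant members, Aqp2, Aqp1 and Aqp3. Capitals mark the codons of the box, all coordinates are mm10 (GRCm38), and every stretch lies in a coding exon.
Aqp2 first box, chr15:99579345-99579371, plus strand, exon 1: gcccacatcAACCCTGCTgtgactgtg
Aqp2 second box, chr15:99583115-99583141, plus strand, exon 3: tgctccatgAATCCAGCCcgctccctg
Aqp1 first box, chr6:55336707-55336733, plus strand, exon 1: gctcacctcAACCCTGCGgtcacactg
Aqp1 second box, chr6:55345828-55345854, plus strand, exon 3: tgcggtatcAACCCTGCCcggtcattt
Aqp3 first box, chr4:41094810-41094836, minus strand, exon 3: gcccacttgAACCCCGCTgtgaccttc
Aqp3 second box, chr4:41093832-41093858, minus strand, exon 5: tatgccgtcAACCCTGCCcgtgacttt
Aqp7, asparagine-alanine-alanine codons, chr4:41035602-41035628, minus strand, exon 3: gcccacatgAATGCCGCAgtgactttc
Aqp7, asparagine-proline-serine codons, chr4:41034804-41034830, minus strand, exon 5: tatgcaatcAACCCATCCcgtgacctg
Aqp11, asparagine-proline-cysteine codons, chr7:97737676-97737702, minus strand, exon 1: acagctagcAACCCGTGCggcgtgatg
Aqp11, asparagine-proline-alanine codons, chr7:97729044-97729070, minus strand, exon 2: gcattgtttAACCCAGCGctggcactt

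The variant codons were searched after the first result was seen, as AACGCNGCN or AATGCNGCN for asparagine-alanine-alanine, as AACCCNTGC, AACCCNTGT, AATCCNTGC or AATCCNTGT for asparagine-proline-cysteine, and as AACCCNTCN, AATCCNTCN, AACCCNAGC, AACCCNAGT, AATCCNAGC or AATCCNAGT for asparagine-proline-serine. Outside Aqp7 and Aqp11 none of these variants was found in frame in the other 8 genes. Aqp7 also held asparagine-alanine-alanine codons from codon 288, near the end of its 303 codons. None of the 50-base windows of any member's M21 transcripts occurred without mismatch in another aquaporin gene. A read that covers such a window thus belongs to at most 1 aquaporin gene of M21. The levels below were counted on the earlier GENCODE M4, whose transcripts were not searched. Windows found in other genes made up 3.87% for Aqp7, spread over 395 genes, 0.233% for Aqp11 and 0.169% for Aqp3, and none of the windows of the other 7 genes.

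Aqp2 stood far above every other aquaporin in the newborn kidney. Levels are TPM, a relative transcript abundance that corrects for library size and transcript length and so allows genes to be compared. The 10 genes together reached 797 TPM in pup 1 and 863 in pup 2, and Aqp2 held 68.6% and 74% of that sum. By class, the water channels Aqp1, Aqp2, Aqp4, Aqp5, Aqp6 and Aqp8 held 86.9 ± 2.08% (SD, n = 2), the aquaglyceroporins Aqp3, Aqp7 and Aqp9, which also pass glycerol, 9.65 ± 1.67%, and Aqp11, an unorthodox member, 3.43 ± 0.409%. In the order of mean TPM the genes ran Aqp2, Aqp1, Aqp3, Aqp11, Aqp4, Aqp7, Aqp5, Aqp6, Aqp8 and Aqp9. Of the 10 genes 8 were detected, meaning at 1 TPM or more in both pups, where 61.5% of all 21474 protein-coding genes were. The median over the 10 genes was 5.99 TPM, beside 4.73 over all protein-coding genes.

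**Figure D1:**
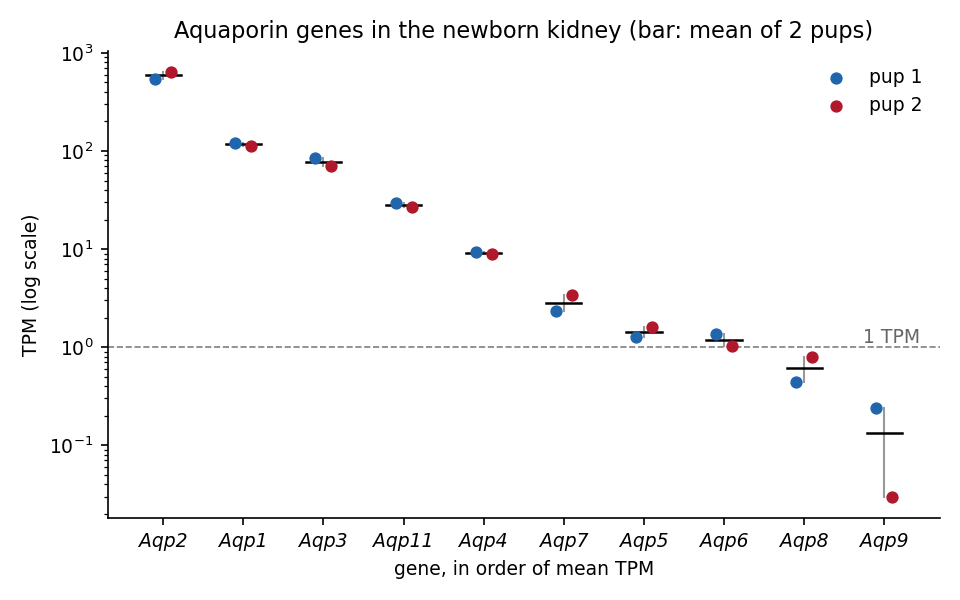
TPM of the 10 aquaporin genes on a log scale, ordered by mean, with 1 point per pup, a black bar at the mean, a thin line joining the pups and a dashed line at 1 TPM. Aqp2 lies highest at 547 and 638 TPM, followed by Aqp1 and Aqp3, and only Aqp8 and Aqp9 lie below the line in both pups.

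Neighbours in this order were called separated when their values did not overlap over the pups and their log2 gap was over the 95th percentile of between-pup differences of genes at a like level. This limit measures the spread between the pups only. It leaves out an error that both pups share, such as that of the gene model of Aqp11. Of the 9 gaps 7 were separated. The widest was at the top, where Aqp2 stood 5.07 times above Aqp1, a mean log2 gap of 2.33 in TPM + 1 against a limit of 0.26. Aqp1 exceeded Aqp3 by 0.61 on this scale and Aqp3 exceeded Aqp11 by 1.40, against a limit of 0.32 each time. The gap from Aqp11 to Aqp4 was 1.54, from Aqp4 to Aqp7 1.41 and from Aqp7 to Aqp5 0.65, against 0.53. Aqp5 and Aqp6 overlapped between the pups, with a gap of 0.16, and the gap of 0.44 from Aqp6 to Aqp8 was under the limit of 0.53. At the bottom Aqp8 exceeded Aqp9 by 0.51 against a limit of 0.40, but that separation rests on 3 counts of Aqp9 per pup and was lost with a pseudocount of 0.01.

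Within the collecting duct set, the RNA of the apical channel was more abundant in whole kidney than that of either basolateral channel. Aqp2 (ENSMUSG00000023013.4, chromosome 15, 99579055 to 99584547, plus strand) had 547 TPM in pup 1 and 638 in pup 2, from 21367 and 30679 expected counts. It ranked 249th of all named genes by mean TPM, above 98.3% of detected genes. Aqp3 (ENSMUSG00000028435.8, chromosome 4, 41092722 to 41098183, minus strand) had 83.8 and 69.7 TPM, from 4097 and 4205 counts. Aqp4 (ENSMUSG00000024411.9, chromosome 18, 15389496 to 15410982, minus strand) had 9.32 and 8.93 TPM. The pups thus differed in opposite directions for Aqp2 and Aqp3, and hardly for Aqp4.

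The ratio of Aqp2 to Aqp3 was 6.52 in pup 1 and 9.16 in pup 2, on TPM. That of Aqp3 to Aqp4 was 9.00 and 7.81, and that of Aqp2 to Aqp4 was 58.7 and 71.5. All 3 ratios exceeded the limit set by the pups, with mean log2 ratios of TPM + 1 of 2.93, 2.94 and 5.87. Counts alone give another picture for Aqp4, whose transcript is 5082 bases long. Its 1377 and 1624 counts outnumbered the 1075 and 1209 of Aqp11, yet per length Aqp11 stood about 3.11 times higher. Aqp4 is overlapped on the opposite strand by an antisense gene that was added to the annotation after these tables were made, and whether counting used the strand is not known from the sources used here.

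The listed genes that carry the vasopressin signal and move AQP2 were all detected. Of 19 listed genes of the vasopressin response and AQP2 traffic, 19 were detected, at a median of 30.7 ± 2.43 TPM. By the same rule 61.5% of all protein-coding genes were detected. The highest were Gnas, which encodes the stimulatory G protein subunit, at 1091 ± 10.3 TPM, Rab11a, a regulator of recycling endosomes, at 907 ± 30.0, and the ubiquitin ligase Nedd4 at 330 ± 41.6. These 3 genes are active in many cell types. The vasopressin receptor Avpr2 had 19.7 TPM in pup 1 and 18.7 in pup 2, and the lowest gene of the list, the adenylate cyclase Adcy3, had 4.84 ± 0.170 TPM. The list of transcription factors for collecting duct Aqp2 expression had all 9 genes detected, at a median of 25.3 ± 0.191 TPM. Among them were Gata3 at 78.7 ± 3.97 TPM and Elf3 at 30.6 ± 2.46, with Elf5 lowest at 4.51 ± 0.990.

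Of the principal cell markers 7 of 7 were detected, beside 61.5% of all protein-coding genes, at a median of 50.3 ± 3.75 TPM. Among them were Gata3 and Scnn1b, a subunit of the epithelial sodium channel, at 64.8 ± 6.39 TPM. Their summed level was 406 TPM in pup 1 and 389 in pup 2, beside 547 and 638 TPM for Aqp2. Aqp3 is also made by urothelium. Of 5 urothelial markers 4 were detected, among them the uroplakin genes Upk3a (60.2 and 82.1 TPM), Upk1a (31.9 and 42.2 TPM) and Upk1b (29.4 and 39.4 TPM), and Krt5 was lowest at 0.63 and 2.41 TPM. The urothelial sum was 143 TPM in pup 1 and 194 in pup 2, beside 83.8 and 69.7 TPM for Aqp3. The part of either cell type in these levels was not tested.

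Aqp2 lies in a row with Aqp5 and Aqp6 on chromosome 15, and these neighbours stood at very different levels. Aqp2, Aqp5 (ENSMUSG00000044217.12, 99590782 to 99594829) and Aqp6 (ENSMUSG00000043144.5, 99601400 to 99605477) lie on the plus strand within 26423 bases. The gaps are 6234 bases from Aqp2 to Aqp5 and 6570 bases from Aqp5 to Aqp6, and hold no protein-coding gene. Aqp5, best known from lung and glands, had 1.26 TPM in pup 1 and 1.62 in pup 2, from 54 and 86 counts. Aqp6, an aquaporin of intracellular vesicles that conducts anions, had 1.36 and 1.02 TPM, from 79 and 73 counts. The TPM of Aqp2 was 434 and 394 times that of Aqp5, and 402 and 626 times that of Aqp6. Between Aqp5 and Aqp6 the order changed from pup 1 to pup 2, and the mean log2 ratio of 0.16 was under the limit of 0.53.

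**Figure D2:**
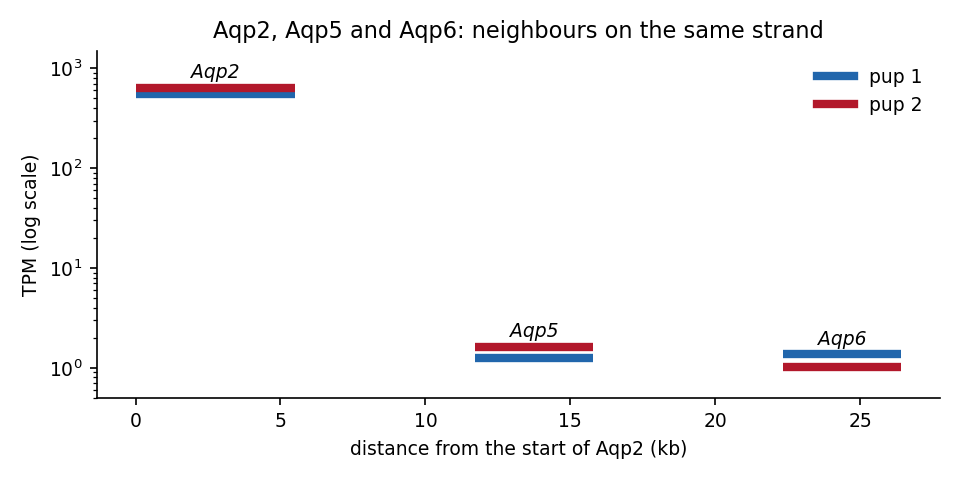
TPM on a log scale of Aqp2, Aqp5 and Aqp6, each drawn as a bar over its place on the chromosome in kb from the start of Aqp2, in blue for pup 1 and red for pup 2. Aqp2 lies at 547 and 638 TPM, while Aqp5 and Aqp6 lie between 1.02 and 1.62.

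The promoter sequences of these neighbours, and of Aqp3 as the other abundant collecting duct gene, were read for some known motifs. Of the 10 genes 9 had an entry in the promoter table of RefSeq (GRCm38.p6). The stretches are the 250 bases before the RefSeq start, without bases inside the M21 gene. Capitals mark matches to GACGTCA, a motif of the cyclic AMP response type. They also mark AGATAA, which factors such as Gata3 bind and which on the opposite strand of the gene reads TTATCT. The last motifs marked are forms of the core promoter box near a start, TATAAG and, in its common form, TATAAA. Both strands were searched, and these letters were chosen after the Aqp2 sequence had been read. A match before Aqp2 therefore cannot test whether these genes differ in motifs.
Aqp2, chr15:99578806-99579054, plus strand: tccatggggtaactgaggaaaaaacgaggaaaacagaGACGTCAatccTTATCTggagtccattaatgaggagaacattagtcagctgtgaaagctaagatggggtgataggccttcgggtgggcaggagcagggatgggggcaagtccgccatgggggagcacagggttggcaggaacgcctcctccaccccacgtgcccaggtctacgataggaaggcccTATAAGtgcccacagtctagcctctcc
Aqp3, chr4:41098184-41098433, minus strand: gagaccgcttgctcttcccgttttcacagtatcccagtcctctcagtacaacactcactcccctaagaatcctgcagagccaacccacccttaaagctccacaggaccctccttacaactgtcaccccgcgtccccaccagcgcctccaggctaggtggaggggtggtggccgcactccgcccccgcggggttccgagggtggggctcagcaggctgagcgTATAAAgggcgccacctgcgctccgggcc
Aqp6, chr15:99600950-99601199, plus strand: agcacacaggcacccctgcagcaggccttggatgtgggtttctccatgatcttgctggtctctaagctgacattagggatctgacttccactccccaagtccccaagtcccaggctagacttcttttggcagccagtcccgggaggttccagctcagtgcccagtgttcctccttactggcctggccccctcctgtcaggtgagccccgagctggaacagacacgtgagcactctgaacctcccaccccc

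In the Aqp2 stretch GACGTCA began 213 bases before the RefSeq start, TTATCT 202 bases and TATAAG 28 bases before it, without overlap. The Aqp3 stretch held TATAAA from 29 bases before the start, and the Aqp6 stretch held none of these letters. That stretch ends at 99601199, while the M21 gene of Aqp6 starts at 99601400, so the bases just before the M21 start were not searched. AGATAA also occurred before Aqp7, from 132 bases before its RefSeq start. The window of Aqp5 held none either and is not printed, since it overlaps the first exon of the M21 gene. Over 32851 windows of the same length, 2.78% held GACGTCA, 9.99% AGATAA, 6.65% TATAAG and 12.4% TATAAA on either strand. Such a match describes the letters and is not a measured binding site.

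For the intercalated cells, from which AQP5 and AQP6 are known, other markers were read. Of 7 marker genes 7 were detected, beside 61.5% of all protein-coding genes, at a median of 17.6 ± 2.51 TPM. The ammonia channel gene Rhcg led at 102 ± 12.5 TPM, followed by the proton pump subunit Atp6v1g3 at 28.0 ± 3.37 and the transcription factor Foxi1 (23.1 and 24.1 TPM). The lowest was pendrin, Slc26a4, the chloride and bicarbonate exchanger of type B cells, at 5.11 ± 0.523 TPM. Aqp5 and Aqp6 thus lay below the lowest of these markers in both pups. Aqp5 is also abundant in lung and glands, and none of 5 markers of such epithelium was detected: Sftpc had 0.255 ± 0.0212 TPM, Sftpa1 and Scgb1a1 were listed at 0 in pup 1, and Sftpb was listed at 0 in both pups.

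Aqp1 was the second most abundant aquaporin. Aqp1 (ENSMUSG00000004655.5, chromosome 6, 55336432 to 55348555, plus strand) had 122 TPM in pup 1 and 112 in pup 2, from 9136 and 10344 counts. It ranked 1375th among named genes and above 90.6% of detected genes. Aqp2 stood above it by 2.16 in pup 1 and 2.50 in pup 2 on the log2(TPM + 1) scale. The pups did not overlap for any pair among Aqp2, Aqp1 and Aqp3.

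AQP1 is found in several cell types, whose markers were detected to unequal degrees, beside 61.5% of all protein-coding genes. Proximal tubule markers were detected for 7 of 7 genes, at a median of 11.5 ± 0.969 TPM. They ran from the phosphate transporter gene Slc34a1 (287 and 203 TPM), the organic anion transporter gene Slc22a6 (76.1 and 58.4 TPM) and the endocytic receptor megalin, Lrp2 (30.8 and 29.8 TPM), to the glucose transporter gene Slc5a2 (5.82 and 3.97 TPM). Their sum was 427 TPM in pup 1 and 319 in pup 2, beside 122 and 112 TPM for Aqp1. Thin descending limb markers were detected for 4 of 6 genes, at a median of 9.37 ± 1.29 TPM. Jag1 led at 37.4 ± 0.877 TPM, a Notch ligand that other developing nephron cells make too, followed by Sptssb at 14.9 ± 4.51 and Corin at 11.5 ± 0.304. Slc14a2, a urea transporter gene of this limb and of the inner medullary collecting duct, had 5.24 and 9.24 TPM, and Slc44a5 was lowest at 0.280 ± 0.0566.

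Endothelium and red cells also carry AQP1, and their detected markers are again to be read beside 61.5% of all protein-coding genes. Endothelial markers were detected for 6 of 6 genes, at a median of 35.9 ± 0.428 TPM, from Plvap at 156 ± 11.1, Emcn at 96.8 ± 2.92 and Pecam1 at 44.4 ± 1.48 to Slc14a1, a urea transporter gene of the descending vasa recta and red cells, at 4.20 ± 0.389. Erythroid markers were detected for 3 of 6 genes: the globin Hbb-bs at 1185 ± 27.6 TPM, the heme synthesis gene Alas2 at 10.3 ± 0.297 and Epb42 at 1.71 in both pups, with Ermap lowest at 0.235 ± 0.00707. How the Aqp1 level divides among these cells was not tested.

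Aqp11 and Aqp7, both known from the proximal tubule, stood at different levels. AQP11 is an intracellular channel whose loss in mice gives cystic kidneys. Aqp11 (ENSMUSG00000042797.8, chromosome 7, 97724006 to 97738289, minus strand) had 29.6 TPM in pup 1 and 27.1 in pup 2. Aqp1 was 4.11 and 4.14 times as abundant per length, nearly the same ratio in both pups. The level of Aqp11 depends on its gene model: a single transcript of 1322 bases was counted, while the M21 version of that transcript has 896 bases.

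AQP7 lets proximal tubule cells take glycerol back from the filtrate. Aqp7 (ENSMUSG00000028427.9, chromosome 4, 41033074 to 41048139, minus strand) had 2.33 TPM in pup 1 and 3.37 in pup 2, from 142 and 224 counts. Its end lies 44582 bases from the other aquaglyceroporin gene of this strand, Aqp3, which was 36.0 times as abundant in pup 1 and 20.7 times in pup 2. Aqp11 exceeded Aqp7 by 12.7 and 8.04 times. The proximal tubule sum was 427 TPM in pup 1 and 319 in pup 2, of which Slc34a1 made 287 and 203. The part of proximal tubule cells in the Aqp7 level was not tested. Genes that handle glycerol inside the cell had a median of 36.0 ± 0.643 TPM. Of 9 measured genes 9 were detected, beside 61.5% of all protein-coding genes. They were led by the lipase Pnpla2 at 56.4 ± 4.16 TPM, glycerol kinase, Gk, at 46.8 ± 3.32 and Dgat2, which makes triglyceride, at 44.7 ± 3.32, with Lipe lowest at 5.14 ± 0.0212. AQP7 is also the glycerol channel of fat cells. Of 5 adipocyte markers only Fabp4, at 548 ± 33.6 TPM and also an endothelial gene, was detected, while Adipoq had 0.14 and 0.71 TPM, Plin1 0.15 and 0.29, and Lep was listed at 0 in pup 1 and 0.01 in pup 2.

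Aqp8 and Aqp9 were near the limit of detection. Aqp8, a channel of liver, pancreas and gut (ENSMUSG00000030762.7, chromosome 7, 123462291 to 123468004), had 0.44 TPM in pup 1 and 0.79 in pup 2, from 18 and 35 counts. Scaled to library depth as CPM, this was 0.433 (95% exact binomial interval 0.257 to 0.684) and 0.717 (0.499 to 0.997), so the intervals overlapped. Aqp9, the glycerol channel of liver and of leukocytes (ENSMUSG00000032204.9, chromosome 9, 71110659 to 71168682), had 3 expected counts in each pup. That is 0.0721 CPM (0.0149 to 0.211) in pup 1 and 0.0614 (0.0127 to 0.180) in pup 2. Mip (ENSMUSG00000025389.7) and Aqp12 (ENSMUSG00000045091.4) had no expected count in either library. With no count seen, the same 95% interval reaches up to 0.0887 CPM in pup 1 and 0.0756 in pup 2, so neither gene could be told from Aqp9. Such intervals cover counting error only.

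Markers of the organs where these low genes are abundant ranged widely. The share detected in each list is to be read beside 61.5% of all protein-coding genes. Hepatocyte markers were detected for 6 of 6 genes, at a median of 4.77 ± 1.15 TPM, from Ttr at 72.7 ± 4.91, Serpina1a (23.2 and 20.8 TPM) and Apoa1 at 4.95 ± 0.792 to Fgb at 2.33 ± 0.537, and albumin, Alb, had 5.65 and 2.42 TPM. Neutrophil and macrophage markers were detected for 5 of 6, at a median of 42.2 ± 3.31 TPM, with S100a8 at 71.2 ± 2.02, Lyz2 at 61.0 ± 0.163, C1qb at 44.9 and 55.1 TPM, and Ly6g lowest at 1.04 and 0.46. Pancreatic markers were detected for 1 of 4, Cela1 at 21.9 ± 2.63 TPM, with Cpa1 at 0.435 ± 0.0212 and Prss1 listed at 0 in both pups. Lens markers were detected for 1 of 4, Bfsp1 at 1.56 ± 0.396 TPM, with Crygs and Cryaa at 0.175 ± 0.0636 and 0.0800 ± 0.0283 and Lim2 listed at 0. Aqp4 is the water channel of astrocytes, and of 5 glial markers 2 were detected, among them Aldoc at 10.3 ± 0.00707 TPM, while S100b had 0.355 ± 0.0212, Gfap 0.215 ± 0.0636 and Slc1a2 0.160 ± 0.0849. What part any of these cells had in the aquaporin levels was not tested.

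**Figure D3:**
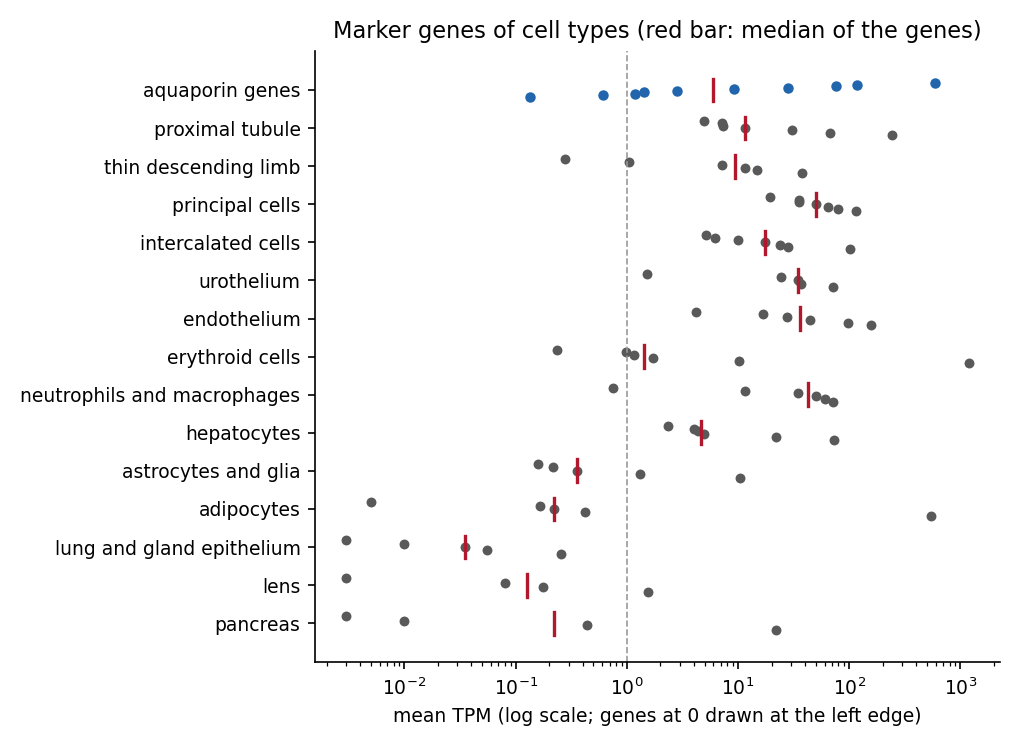
Mean TPM over both pups, on a log scale, of each aquaporin gene (blue) and of each marker gene of 14 cell types (grey), with the median of each row in red, a dashed line at 1 TPM and genes at 0 drawn at the left edge. Markers of tubule, duct, urothelium and endothelium lie mostly above 1 TPM, and those of lung and gland epithelium, lens, pancreas and fat mostly below it.

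The annotation behind the tables gave 25 transcripts to the 10 genes, and isoform shares matter for only a few of them. Aqp1, Aqp2, Aqp4, Aqp6 and Aqp11 had a single transcript each, so their estimates involve no division among isoforms. Aqp3-201, the coding transcript, held 98.7% of Aqp3 TPM in pup 1 and 99% in pup 2, and the retained intron transcript Aqp3-202 the rest. Aqp5-202 held 93.9% and 100% of Aqp5, although from 51.1 and 86 counts. In Aqp7 the coding transcript Aqp7-202 held 94.7% in pup 1 and 86.3% in pup 2. The short processed transcript Aqp7-204, of 444 bases, took 13.7% in pup 2 from 5.83 expected counts.

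The splits of the lowest genes rest on few counts. In Aqp8 all of the TPM in pup 1 went to Aqp8-201, while in pup 2 the split was 45.5% for Aqp8-201 and 54.5% for Aqp8-202. Aqp9, with 10 transcripts, is the plainest case. Its 3 counts in pup 1 went to Aqp9-203, Aqp9-204 and Aqp9-205, giving Aqp9 a mean length of 514 bases and 0.24 TPM, and the 3 counts in pup 2 went to Aqp9-201 of 2643 bases, giving 0.03 TPM. The TPM values of Aqp9 in the pups thus differed through the assigned length, not through the counts. The posterior mean TPM in the authors' tables was 0.87 and 0.56 for Aqp9, again from 3 counts a pup.

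**Figure D4:**
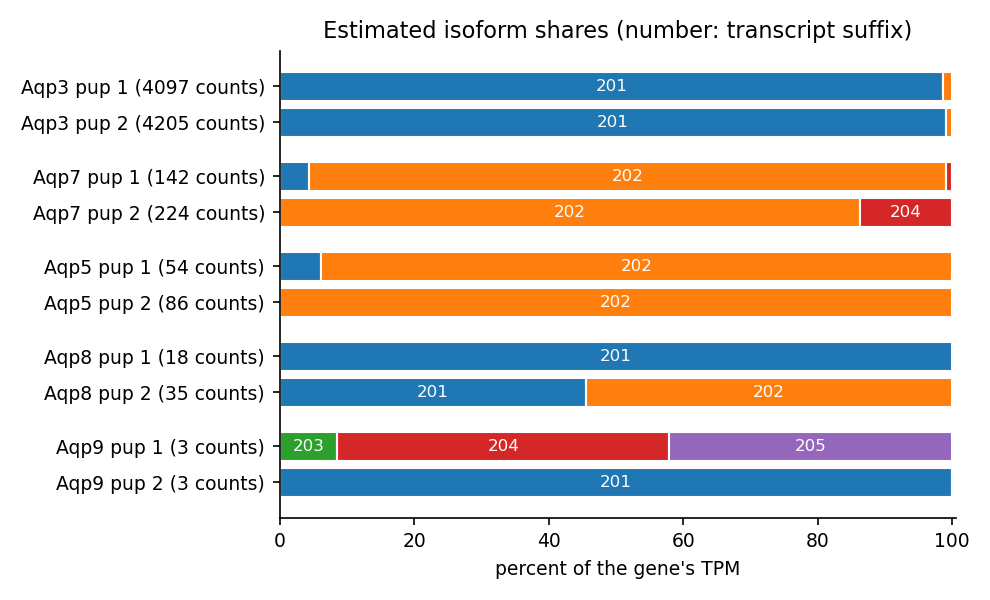
Percent of each gene's TPM assigned to each transcript in both pups, for the 5 genes with more than 1 transcript, with the gene's expected counts beside each bar and the transcript suffix on segments over 8%. Aqp3 is nearly all transcript 201 in both pups, whereas the 3 counts of Aqp9 fall to different transcripts in pup 1 and pup 2.

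Between the pups no aquaporin gene with enough counts to be tested differed by 2-fold. The ratio of pup 2 to pup 1 was taken on CPM scaled by TMM, with 0.1 added, for the 8 genes with at least 50 counts in either pup. Of these 0 were past 2-fold, beside 0.59% of all 15074 genes tested. The 95% counting interval left out 0 for 3 of the 8, Aqp2, Aqp3 and Aqp7, a share near the 40.3% of all genes tested. Aqp2 was 1.24 times higher in pup 2, a log2 ratio of 0.32 with an interval of 0.29 to 0.34, and 0.22 on deposited TPM. Aqp3 was lower in pup 2, at a log2 ratio of -0.17 (-0.23 to -0.11), and Aqp7 higher, at 0.44 (0.14 to 0.77).

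The intervals of the other 5 tested genes included 0, except that of Aqp1 under scaling by total counts (-0.09 to -0.01). Aqp5 had a log2 ratio of 0.44 (-0.04 to 0.98) and Aqp6 one of -0.30 (-0.80 to 0.16). Aqp1 had -0.03, Aqp11 -0.04 and Aqp4 0.03, the last of which changed sign on deposited TPM (-0.06). The median absolute log2 ratio was 0.24 over the 8 aquaporin genes and 0.10 over all genes tested, whose 95th percentile was 0.44. Marker genes differed between the pups to unequal degrees within a list. The 5 urothelial genes were all higher in pup 2, at log2 ratios from 0.50 for Upk1a to 1.92 for Krt5. Those of the thin limb list ran from -0.10 for Slc44a5 to 0.90 for Slc14a2, which the inner medullary collecting duct expresses too. Between these ends lay Fst at 0.65 (56 and 104 counts), Sptssb at 0.57, Jag1 at 0.13 and Corin at 0.04. The 7 proximal tubule genes ran from -0.41 for Slc34a1 to 0.05 for Slc5a12, with Lrp2 at -0.01. Among principal cell genes Gata3 had -0.06 and Scnn1b -0.11. The part of such differences in the ratios of Aqp2, Aqp3 and Aqp7 was not tested. Depth was 41584961 expected counts in pup 1 and 48823952 in pup 2. The pups are replicates of 1 group, so these ratios are the error of the levels above.

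**Figure D5:**
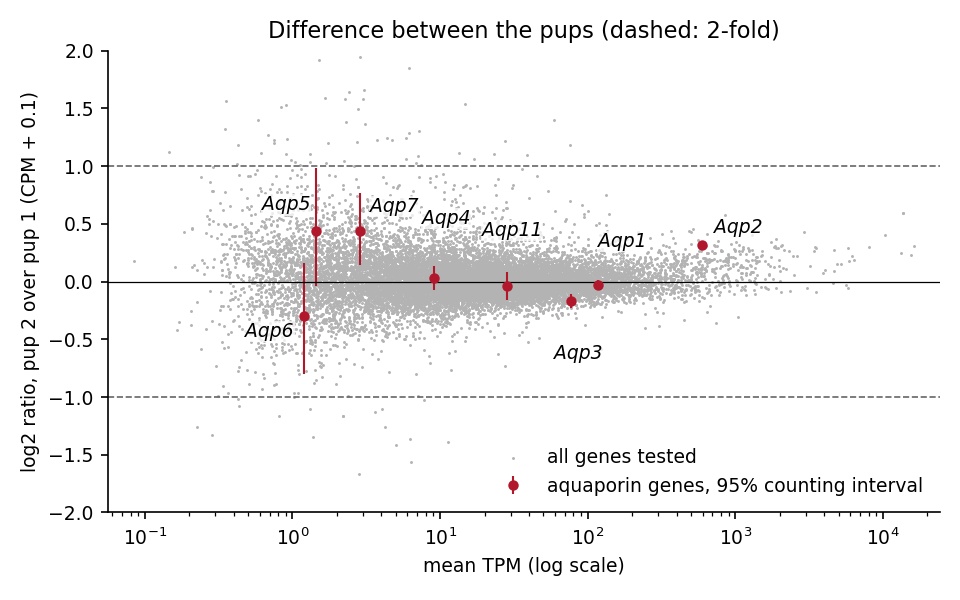
Log2 ratio of pup 2 over pup 1 against mean TPM (log scale) for all genes tested (grey) and the 8 aquaporin genes tested (red, with 95% counting intervals), with dashed lines at 2-fold and 18 genes lying outside the plotted range. Aqp2 lies above 0 and Aqp3 below it by more than their intervals, and all aquaporin genes lie within the dashed lines.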

How the data were processed

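Total RNA longer than 200 nt, 10 ng per library with spike-ins per the labels, was sequenced from 2 pups. Per the file headers, the authors deposited expected counts (estimated reads, not normalized), TPM and FPKM for genes and transcripts of each library, in columns as RSEM writes them. The authors' transcript tables add each isoform's percent of the TPM of its gene. The text deposited with the libraries names mm10 and GENCODE M4. For aligner, versions and strand: not given in the sources used here. Each transcript's effective length was its length less a fixed 99 bases.

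Genes were named by identifier without version through GENCODE M21 (GRCm38), which gave 42462 of 43346 Ensembl genes a name. Levels are deposited TPM, mean ± SD. Log2 ratios between genes used TPM + 1. Rounded expected counts were scaled with edgeR 4.0.16 (R 4.3.3) and, as an alternative, DESeq2 1.42.0; other steps used Python 3.11.15, pandas 2.3.3, SciPy 1.17.1 and Matplotlib 3.10.9. The ratio step was run on simulated counts with planted changes larger than 2-fold. That run does not bear on smaller ratios, such as those of the tested aquaporin genes. The deposited credibility intervals of TPM surround the posterior mean and can leave out the TPM (Aqp2 in pup 1: 547 TPM, interval 529 to 544), so exact binomial intervals on counts are given instead. Named were all family genes, every gene of 11 fixed pairs, and, of each list, up to 3 genes with the highest mean TPM plus the lowest. Other marker genes named (Alb, Adipoq, Plin1, Fst, Slc14a2, Slc5a12 and those listed at or near 0) were picked after their values were seen. A few genes that the rule names are not reported here. Members, lists and tests were chosen with earlier results of these data known. Proteins were not compared, as no protein table was used here.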

Additional observations from a re-analysis of the deposited data

How the results depend on the processing

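Of the 10 aquaporin genes 8 were detected at 1 TPM in both pups, 8 at 0.5 TPM, 6 at 2 TPM and 5 at 5 TPM. Aqp5 and Aqp6, at 1.02 to 1.62 TPM, lay just above the cut of 1 TPM and were lost at 2 TPM. Posterior mean TPM and each pup alone also gave 8. Posterior mean TPM moved the water channel share from 86.9% to 86.8%, and the 11 gene pairs kept their side of the limit, under the alternatives run for them. Separated neighbours numbered 7, and 6 with a pseudocount of 0.01 or with posterior mean TPM, where Aqp9 (0.715 TPM in place of 0.135) moved above Aqp8. No aquaporin gene passed 2-fold under any scaling, added value or minimum on counts, while the count over all genes went from 89 to 35 with 1 CPM added, 389 with a minimum of 10 counts and 620 with none. On deposited TPM the log2 ratio of Aqp9, outside the genes tested, was -1.39 from 3 counts a pup. Leaving out spike-ins, short features and mitochondrial genes raised levels by about 1.09 times. Posterior means put Aqp5-202 at 76.2% and Aqp7-202 at 73.6% in place of 97.0% and 90.5%, Aqp8-201 at 60.6% in place of 72.8% and Aqp9-201 at 2.65% in place of 49.97%. Counting intervals, recomputed after the data were seen, left out 0 for 3 genes with DESeq2 size factors and 4 with total counts, where Aqp1 joined. No paired analysis was possible because there is 1 group. Depth limits Aqp8 and Aqp9, and 2 littermates limit every spread.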
